A study of Homo sapiens with 6 samples.

Results

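The ADAM and ADAMTS metalloproteinase families were described in MDA-MB-231, a human breast cancer line that grows with mesenchymal features. The members were the probe sets whose annotated symbol is unique and starts with ADAM and a number, or with ADAMTS, which takes in the ADAMTS-like (ADAMTSL) genes. The rule used names alone and found 50 of the 19775 genes with a symbol of their own, through 118 of the 54675 probe sets of the array. Of these 50, 5 are antisense or divergent RNAs named after a protease gene and 4 are ADAM pseudogenes. The cells compared had received a lentivirus for GATA3 together with enhanced GFP (3 arrays) or for enhanced GFP alone (3 arrays), and cells of both groups were sorted for GFP. RNA was collected after 2 days in 100 mm dishes. The promoter of the vectors and the number of clones behind each sorted culture are not given in the sources used here. No label states that the replicates were separate cultures, so p-values rest on array-to-array spread that could be technical.

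ADAM proteins are membrane-anchored proteases that carry a disintegrin domain. Those with an intact zinc-binding site cut the extracellular parts of other membrane proteins, a step called shedding that frees growth factors such as those of the EGF family and starts Notch signalling. Some ADAMs lack that site and act in adhesion. ADAMTS proteins are secreted relatives with thrombospondin repeats that trim procollagens, cut the large proteoglycans aggrecan and versican, or act on fibrillin-rich matrix. ADAMTS-like proteins have the repeats but no protease domain.

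Values are GCRMA values of Affymetrix probe sets, read as log2, and a change is the mean of the arrays labelled GATA3 minus that of the GFP control arrays. A common floor lay at 2.16, and a value over 4 was taken as detected. Probe sets over 4 on at least 3 of the 6 arrays were tested with limma, and p-values were adjusted over all 23785 of them by the Benjamini-Hochberg method, with a threshold of 0.05. The GATA3 probe set 209604_s_at read 7.93, 7.94 and 7.32 in the arrays labelled GATA3, against 9.37, 9.35 and 9.45 in the GFP control, so GATA3 itself was lower under its own label (change -1.66, limma adjusted p 0.00238). Whether these probes read the introduced sequence is not known, and every direction below rests on the labels. GATA3 replicate 3 stood apart: it correlated at 0.984 to 0.986 with the other arrays of its group, against 0.995 to 0.996 among the GFP control arrays, and the name of its raw file alone carries another date. Changes are therefore also given without it, a fit that equals taking that array as a batch of its own.

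The cell line markers VIM, CD44, CAV1, EGFR and MSN were over 4 on all arrays. Of these, VIM and MSN fell (-0.32 and -0.24, limma adjusted p 0.0158 and 0.0342) and EGFR rose (0.33, 0.0278). CD44 and CAV1 did not pass, and without GFP control replicate 1 none of these markers passed. Of the steroid receptors PGR was at the floor. ESR1 held the same 4.02 on 5 of the 6 arrays and 4.45 on GATA3 replicate 3. Of the leukocyte (3 measured) and endothelial (4 measured) markers none was over 4 on any array, and of 5 fibroblast markers 2 were (COL1A1 and PDGFRB). All 5 epithelial markers rose, and their summed log2 values were 59.8 to 61.9 in the arrays labelled GATA3, against 51.5 to 51.7 in the GFP control. Their part in the results below was not tested. In bulk RNA, fewer cells that express a gene and less RNA per cell cannot be told apart.

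Most of the family was not detected in these cells. Of the 118 probe sets, 91 lay at or under 4 on every array, with 3.70 as their highest value, and 67 of them lay within 0.05 of the common floor throughout. The 27 tested probe sets stand for 15 genes. These are ADAM8, ADAM9, ADAM10, ADAM12, ADAM15, ADAM17 and ADAM19 among the ADAMs, ADAMTS6, ADAMTS9, ADAMTS10, ADAMTS12, ADAMTS15 and ADAMTS16, and the ADAMTS-like genes ADAMTSL1 and ADAMTSL4. The other 35 genes had no tested probe set, and a low value on an array does not show that a transcript is absent.

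The detected ADAMs all belong to the group with an intact protease site. Of its 12 genes on the array 7 were tested, and ADAM20, ADAM21, ADAM28, ADAM30 and ADAM33 stayed between 2.16 and 3.70. None of the 6 genes without that site was tested. Those were the sperm proteins ADAM2, ADAM18 and ADAM32 and the brain-expressed ADAM11, ADAM22 and ADAM23, whose 18 probe sets read 2.16 to 3.54. All procollagen N-propeptidases (ADAMTS2, ADAMTS3 and ADAMTS14) stayed between 2.16 and 2.37. ADAMTS13, the plasma protease of von Willebrand factor, stayed at 3.18 or under. Of the 7 proteases known to cut aggrecan or versican, only ADAMTS9 and ADAMTS15 were tested, and ADAMTS1, ADAMTS4, ADAMTS5, ADAMTS8 and ADAMTS20 read 2.16 to 3.47. ADAMTS17, ADAMTS18, ADAMTS19, ADAMTSL2, ADAMTSL3 and ADAMTSL5 read 2.16 to 2.70. The pseudogenes ADAM3A, ADAM3B, ADAM5 and ADAM6 read at most 2.35, and the antisense and divergent RNAs ADAM7-AS2, ADAMTS16-DT, ADAMTS9-AS1, ADAMTS9-AS2 and ADAMTSL4-AS2 at most 2.48. Detection differed between some neighbours on a chromosome. In the RefSeq gene table no protein-coding gene lies between ADAM9 and ADAM32 or between ADAMTS8 and ADAMTS15. ADAM9 and ADAMTS15 were tested while the gene beside each was not. In the other such pairs neither gene was tested (ADAM21 and ADAM20, ADAMTS1 and ADAMTS5, ADAM32 and ADAM18, ADAM18 and ADAM2).

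**Figure D1:**
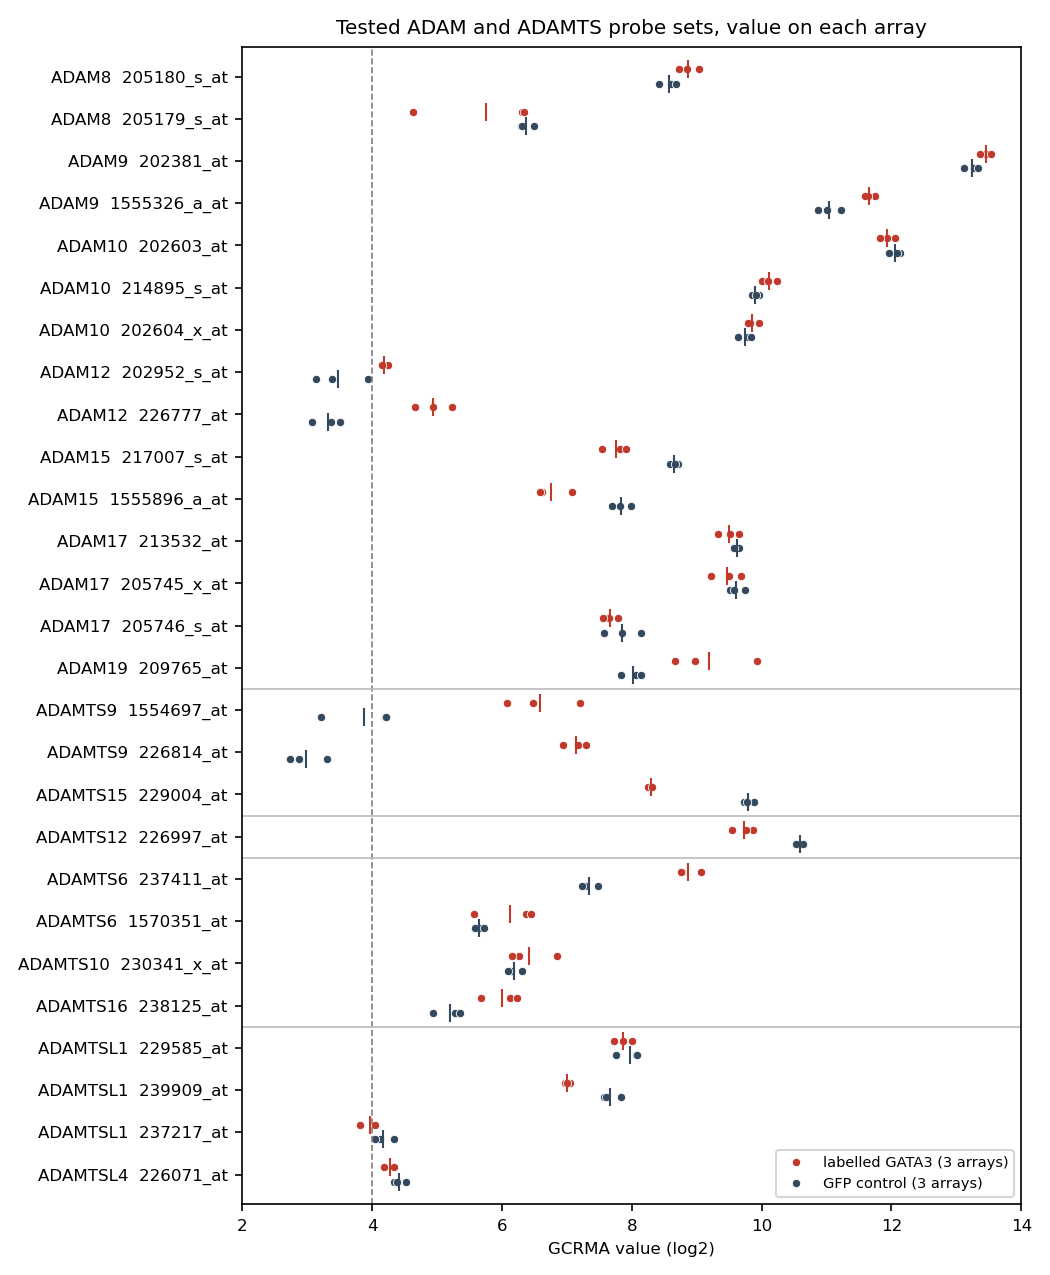
Points show the GCRMA value (log2) of each tested ADAM or ADAMTS probe set on each array, arrays labelled GATA3 above GFP control arrays in each row, with a vertical tick at the group mean. The dashed line marks the detection level of 4, and horizontal lines separate ADAMs, aggrecan or versican proteases, ADAMTS12, the ADAMTS6 to ADAMTS16 group and ADAMTS-like genes. The line separates the groups in the ADAMTS9 row with the lower GFP control values and in the ADAM12 rows, and the ADAMTS15 groups do not overlap.

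With the probe set of the highest mean standing for each gene, 4 of the 15 tested genes rose (ADAMTS9, ADAMTS6, ADAM12 and ADAMTS16), 3 fell (ADAMTS15, ADAMTS12 and ADAM15) and 8 did not pass the threshold. Over all genes tested in the same way, 29.3% passed, 14.8% higher and 14.5% lower. By probe set, 6 of 27 rose and 5 fell, and 25.3% of all tested probe sets passed (11.3% higher, 14% lower). The groups did not overlap in 16 of the 27, against 46.0% of all tested probe sets. These counts lean on the filter, since 3 of the 27 (both of ADAM12 and 1 of ADAMTS9) entered through the arrays labelled GATA3 alone and so had to differ. With no filter, 10 of 118 probe sets passed (5 in each direction), or 8.47%, beside 6.62% of all (3.38% higher, 3.24% lower). Other scalings moved the split of member probe sets to 9 higher and 5 lower (quantile), or 10 higher and 5 lower (cyclic loess, or arrays centred on their median). No test of the family against the rest of the array was made.

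ADAMTS9, a secreted protease known to cut versican and aggrecan, had the largest fitted rise among the members. Its probe set 226814_at read 7.18, 6.94 and 7.30 in the arrays labelled GATA3, against 2.87, 2.74 and 3.31 in the GFP control. Every GFP control array was thus under the detection level and every array labelled GATA3 far over it. The change was 4.16 (SE 0.18), at least 8.81-fold higher against the level of 4, with a limma adjusted p of 8.35e-05. The second tested probe set, 1554697_at, read 7.21, 6.47 and 6.08 in the arrays labelled GATA3, against 4.20, 4.22 and 3.21 in the GFP control. It rose by 2.71 (SE 0.40, 6.54-fold, limma adjusted p 0.00651), with 1 GFP control array under 4, so that fold is uncertain. Without GATA3 replicate 3 the changes were 4.08 and 2.96, and both calls held whichever array was left out (adjusted p at most 0.0288). The filter was not repeated in those fits. Probe set 226814_at entered through the arrays labelled GATA3 alone, so for it the direction was fixed by the filter. The 2 other ADAMTS9 probe sets stayed at 2.16 to 2.18 on all arrays, as did those of the antisense RNA ADAMTS9-AS1 at 2.16.

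ADAMTS6, a protease linked to fibrillin microfibrils and to latent TGF-beta binding proteins, rose as well. Probe set 237411_at read 9.07, 8.78 and 8.76 in the arrays labelled GATA3, against 7.29, 7.23 and 7.49 in the GFP control. The change was 1.53 (SE 0.12, 2.89-fold, limma adjusted p 0.000684), and 1.59 without GATA3 replicate 3. The other tested probe set, 1570351_at, read 6.37, 6.45 and 5.56 in the arrays labelled GATA3, against 5.65, 5.72 and 5.58 in the GFP control. GATA3 replicate 3 lay just under the control values and the test was not passed (change 0.47, adjusted p 0.215). Without that array the change was 0.75 and passed (adjusted p 0.00269).

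ADAMTS16, a related protease expressed in kidney and gonad, read 6.12, 5.67 and 6.23 in the arrays labelled GATA3, against 5.28, 4.94 and 5.35 in the GFP control. The groups did not overlap, and the change was 0.81 (SE 0.19, 1.76-fold, limma adjusted p 0.0284). This call was the least steady of the 7. It was lost when GATA3 replicate 1 or 3 or GFP control replicate 1, 2 or 3 was left out (adjusted p 0.0825, 0.0585, 0.0747, 0.0890 and 0.0655), and with no filter on low values (0.115). ADAMTS10, which binds fibrillin, read 6.26, 6.15 and 6.85 in the arrays labelled GATA3, against 6.31, 6.14 and 6.09 in the GFP control, and only GATA3 replicate 3 lay outside the control range upward. Its change of 0.24 did not pass (95% interval -0.26 to 0.74) and was 0.03 without that array.

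In the opposite direction, ADAMTS15, another protease able to cut aggrecan and versican, read 8.32, 8.25 and 8.31 in the arrays labelled GATA3, against 9.88, 9.73 and 9.78 in the GFP control. Both groups were tight and more than a log2 unit apart. The change was -1.50 (SE 0.06), 2.84-fold lower, with a limma adjusted p of 8.23e-05, and it stayed between -1.54 and -1.46 when any 1 array was left out. So the 2 tested proteases with aggrecan and versican as shared substrates moved in opposite directions. The adjacent gene ADAMTS8 stayed at 3.47 or under.

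ADAMTS12, which cuts cartilage oligomeric matrix protein, fell. It read 9.87, 9.75 and 9.55 in the arrays labelled GATA3, against 10.60, 10.64 and 10.53 in the GFP control. The change was -0.86 (SE 0.09), 1.82-fold lower (limma adjusted p 0.00203), and -0.78 without GATA3 replicate 3.

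Among the ADAMs, ADAM15 fell by both of its probe sets. ADAM15 is a membrane protease whose disintegrin domain carries an integrin-binding RGD motif in humans. Probe set 217007_s_at read 7.82, 7.91 and 7.54 in the arrays labelled GATA3, against 8.72, 8.59 and 8.66 in the GFP control, a change of -0.90 (SE 0.11, 1.86-fold lower, limma adjusted p 0.00379). Probe set 1555896_a_at read 6.63, 7.08 and 6.58 in the arrays labelled GATA3, against 7.70, 7.82 and 7.99 in the GFP control, a change of -1.08 (SE 0.17, adjusted p 0.00747). No value of one group reached the other in either probe set. Without GATA3 replicate 3 the changes were -0.79 and -0.98.

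ADAM12, a protease of muscle, bone and placenta that sheds heparin-binding EGF, rose from under the detection level. Probe set 226777_at read 5.23, 4.94 and 4.67 in the arrays labelled GATA3, against 3.08, 3.50 and 3.37 in the GFP control. The change was 1.63 (SE 0.18, limma adjusted p 0.00235), which is at least 1.93-fold higher against the level of 4. The second tested probe set, 202952_s_at, read 4.15, 4.25 and 4.16 in the arrays labelled GATA3, against 3.93, 3.38 and 3.13 in the GFP control. Its values barely crossed the level and it did not pass (0.71, adjusted p 0.0569), except without GFP control replicate 1 (0.00728) or after quantile, cyclic loess or median scaling (0.0415, 0.0433 and 0.0305). The 3 other ADAM12 probe sets stayed at 2.39 or under.

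ADAM19, which sheds neuregulin, lay at the threshold. It read 8.67, 8.98 and 9.93 in the arrays labelled GATA3, against 8.06, 7.84 and 8.14 in the GFP control. The groups did not overlap, but replicate 3 stood almost 1 unit over the others of its group. The change of 1.18 (SE 0.33, 2.26-fold) missed the threshold with a limma adjusted p of 0.0533. It passed without GATA3 replicate 3, at a smaller change of 0.81 (adjusted p 0.0178), and without GATA3 replicate 1, at 1.44 (0.0411). It also passed after quantile, cyclic loess or median scaling (0.0291, 0.0433 and 0.0270). Without GATA3 replicate 2 (0.100) or GFP control replicate 1, 2 or 3 (0.131, 0.162 and 0.128) it did not pass. Nor did it pass with no filter on low values (0.197) or with the replicate number as a block (0.0628). In 9 of 17 alternatives ADAM19 stayed on the side not called.

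ADAM9, a widely expressed protease, gave a clear answer by 1 probe set only. Probe set 1555326_a_at read 11.74, 11.64 and 11.60 in the arrays labelled GATA3, against 11.23, 10.87 and 11.004 in the GFP control, a rise of 0.63 (SE 0.10, 1.54-fold, limma adjusted p 0.00872). Probe set 202381_at, with the higher mean, read 13.46, 13.53 and 13.36 in the arrays labelled GATA3, against 13.12, 13.27 and 13.33 in the GFP control. Its change of 0.21 did not pass (95% interval 0.04 to 0.38, adjusted p 0.0787), but did after cyclic loess or median scaling (0.0408 and 0.0249). Both pointed the same way, and the remaining probe set stayed at 2.79 or under.

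The main sheddases of membrane proteins showed no change past the threshold. ADAM10, which makes the first cut in Notch and sheds cadherins, read 12.06, 11.92 and 11.82 in the arrays labelled GATA3 by probe set 202603_at, against 11.96, 12.13 and 12.08 in the GFP control. Its change was -0.12 (95% interval -0.32 to 0.07), and the other probe sets gave 0.10 (-0.09 to 0.30) and 0.21 (0.03 to 0.38, limma adjusted p 0.0908). The last of these, 214895_s_at, passed after quantile, cyclic loess or median scaling (0.0399, 0.0483 and 0.0463), so the direction of ADAM10 depends on the probe set. ADAM17, known as the TNF-alpha converting enzyme, read 9.32, 9.52 and 9.66 in the arrays labelled GATA3 by probe set 213532_at, against 9.63, 9.65 and 9.57 in the GFP control. Its 3 probe sets changed by -0.12, -0.14 and -0.19, with 95% intervals of -0.35 to 0.11, -0.48 to 0.19 and -0.59 to 0.22. Each interval leaves out a rise or fall of 2-fold.

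ADAM8, a protease of leukocytes, had probe sets of opposite sign and neither passed. Probe set 205180_s_at read 8.84, 8.73 and 9.04 in the arrays labelled GATA3, against 8.60, 8.68 and 8.42 in the GFP control (0.31, limma adjusted p 0.105). Probe set 205179_s_at read 6.30, 6.34 and 4.64 in the arrays labelled GATA3, against 6.49, 6.30 and 6.30 in the GFP control. Only GATA3 replicate 3 was low there, and the change of -0.60 became -0.04 without it. On 2 of the 6 arrays it held an identical value.

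ADAMTSL1, a secreted protein without a protease domain, also depended on the probe set. Probe set 239909_at read 6.97 to 7.04 in the arrays labelled GATA3, against 7.57 to 7.83 in the GFP control, and fell by 0.66 (SE 0.09, limma adjusted p 0.00561). Probe set 229585_at, with the higher mean, read 8.004, 7.87 and 7.72 in the arrays labelled GATA3, against 8.07, 7.76 and 8.08 in the GFP control, and its change of -0.10 did not pass (95% interval -0.42 to 0.21). The third, 237217_at, held the same 4.05 on 3 arrays and did not pass (-0.20). ADAMTSL4, known for its role in the eye lens zonule, read 4.31, 4.19 and 4.34 in the arrays labelled GATA3, against 4.53, 4.34 and 4.38 in the GFP control, close to the detection level, and did not pass (-0.14).

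**Figure D2:**
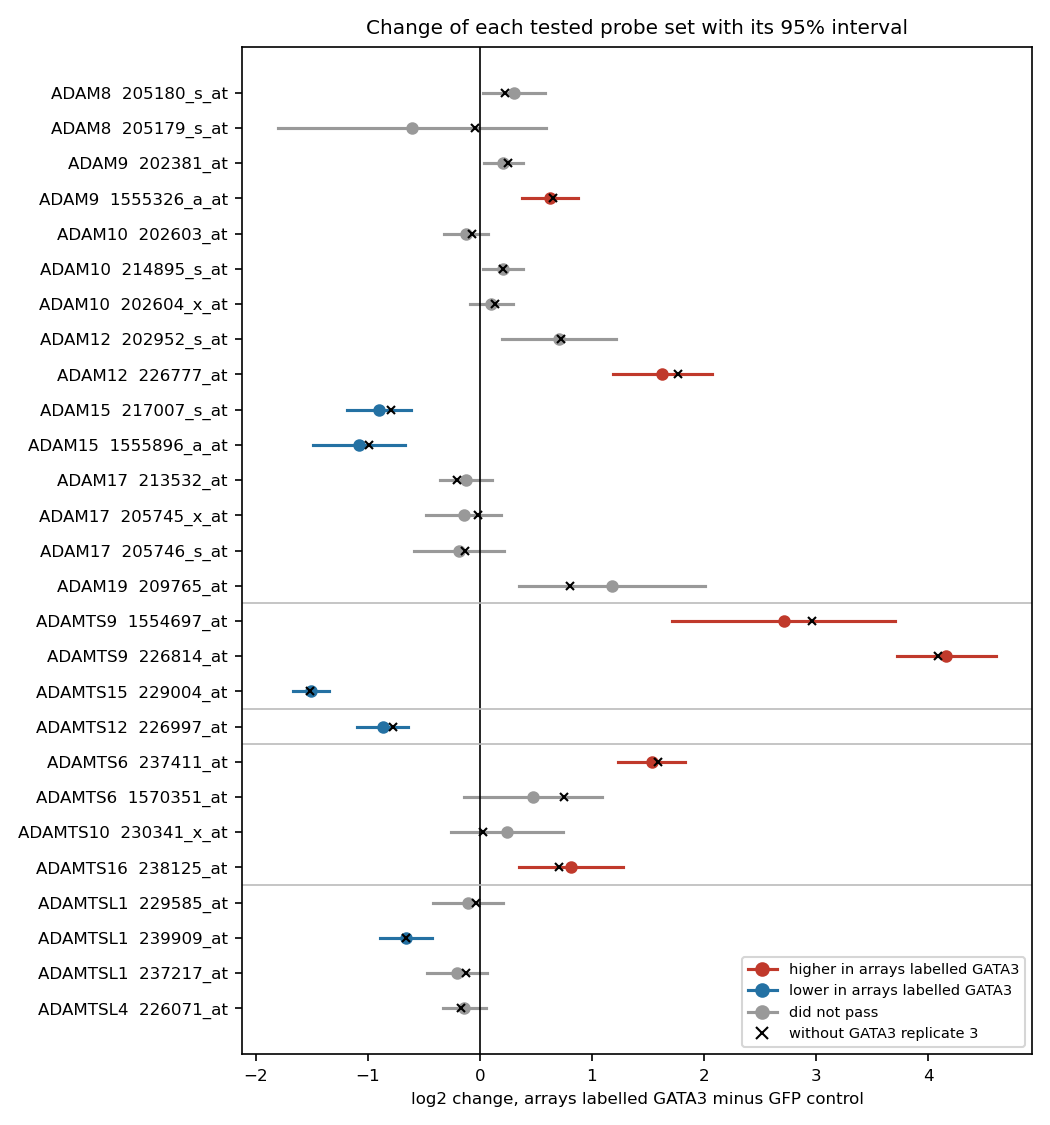
Circles show the log2 change (arrays labelled GATA3 minus GFP control) of the 27 tested probe sets, with lines for the 95% interval of the limma fit and crosses for the change without GATA3 replicate 3. ADAMTS9 lies farthest to the right at 4.16 and 2.71 and ADAMTS15 farthest to the left at -1.50, while ADAM10 and ADAM17 lie near 0.

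In size, 3 member genes were at least 2-fold higher by the fitted change (ADAMTS9, ADAMTS6 and ADAM12) and 1 was at least 2-fold lower (ADAMTS15), where 4.23% and 3.05% of all genes tested were. By probe set these counts were 4 and 2, beside 3.51% and 3.43% of all. ADAM12 was counted through GFP control values under the detection level of 4. Against that level its rise was at least 1.93-fold, so a 2-fold rise is not shown. The ADAM12 probe set and 1 of the ADAMTS9 probe sets counted as higher entered through the arrays labelled GATA3 alone. Those had to differ, so the counts of higher members lean on the filter and do not compare evenly with the shares of all. Over all tested probe sets, 4.04% had a change as large as the 1.50 of ADAMTS15 in either direction.

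**Figure D3:**
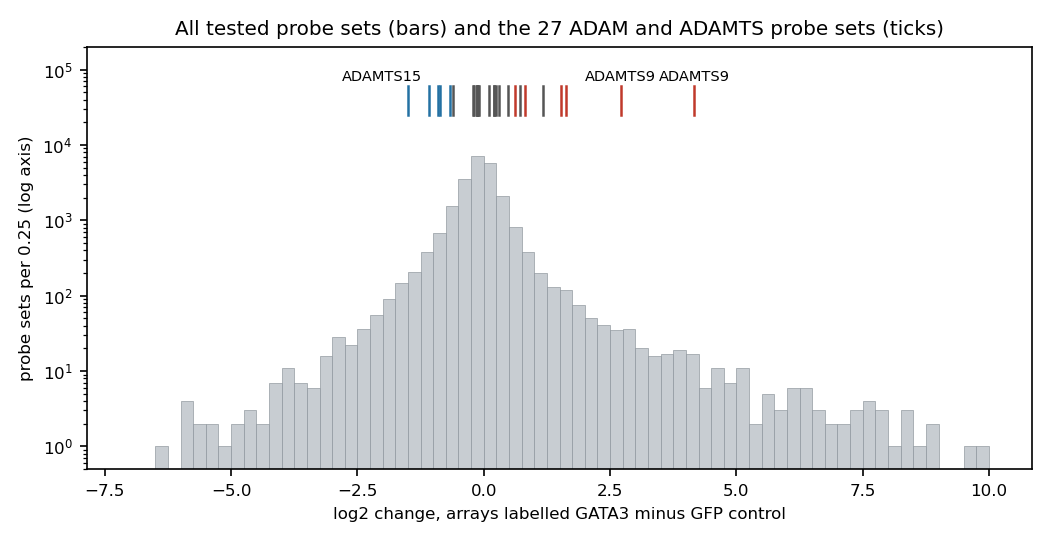
Bars count all 23785 tested probe sets by log2 change (log axis, bins of 0.25), and ticks mark the 27 ADAM and ADAMTS probe sets, red if higher, blue if lower and grey if not past the threshold. The ticks cover -1.50 to 4.16, and most lie inside the central part of the distribution.

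Upstream sequence was available from RefSeq for 29 of the 50 genes, and the called genes without an entry were ADAMTS9, ADAMTS15 and ADAMTS16. The 250 bases before the annotated start are shown for the called genes ADAM12 and ADAMTS6, which rose, and ADAM15 and ADAMTS12, which fell, because the factor named in the labels binds sites with the core GATA. Capitals mark that core, searched on both strands as GATA.
ADAM12, GRCh38.p14 chr10:126388478-126388727, minus strand: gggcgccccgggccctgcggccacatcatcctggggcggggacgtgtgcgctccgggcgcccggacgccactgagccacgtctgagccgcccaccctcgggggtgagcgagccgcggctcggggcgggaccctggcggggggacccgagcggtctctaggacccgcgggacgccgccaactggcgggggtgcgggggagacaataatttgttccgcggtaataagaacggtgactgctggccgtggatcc
ADAMTS6, GRCh38.p14 chr5:65481921-65482170, minus strand: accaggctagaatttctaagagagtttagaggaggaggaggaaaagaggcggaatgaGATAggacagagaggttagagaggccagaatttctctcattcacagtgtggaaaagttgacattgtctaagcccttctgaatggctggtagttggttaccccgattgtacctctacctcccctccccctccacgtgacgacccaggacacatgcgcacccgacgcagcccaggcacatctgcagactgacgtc
ADAM15, GRCh38.p14 chr1:155051066-155051315, plus strand: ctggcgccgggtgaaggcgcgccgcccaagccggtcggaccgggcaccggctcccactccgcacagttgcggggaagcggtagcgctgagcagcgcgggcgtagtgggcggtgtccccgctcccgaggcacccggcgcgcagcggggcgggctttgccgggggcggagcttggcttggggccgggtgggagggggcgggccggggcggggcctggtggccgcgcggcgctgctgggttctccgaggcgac
ADAMTS12, GRCh38.p14 chr5:33891991-33892240, minus strand: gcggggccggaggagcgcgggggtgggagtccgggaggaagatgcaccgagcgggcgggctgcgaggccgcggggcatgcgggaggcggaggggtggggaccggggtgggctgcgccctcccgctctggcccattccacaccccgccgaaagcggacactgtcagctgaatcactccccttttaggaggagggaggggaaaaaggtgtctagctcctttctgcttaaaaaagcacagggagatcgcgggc
Of these 4 windows the core occurred in that of ADAMTS6, 193 bases before the start, and among the other tested members with a sequence it also occurred in ADAMTSL1, 27 bases before the start. It was in 2 of 11 tested members (18.2%), 8 of all 29 members with a sequence (27.6%) and 46.5% of 27305 promoters of that length. The longer forms AGATAA and TGATAA, on either strand, occurred in none of the 11 tested member genes with a sequence and in 14.9% of all promoters. The window of ADAMTS6 was 52.4% G and C, and those of ADAM12, ADAM15 and ADAMTS12 were 73.6%, 79.6% and 68.4%, beside a median of 58% over all promoters. Matches describe these letters only.

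Genes that help or process these proteases were measured next to them, and their counts stand beside the 14.8% of all tested genes that were higher and the 14.5% that were lower. Of 9 tested partners of ADAM10 and ADAM17 and proprotein convertases, 4 rose, none fell and 5 did not pass. Their median change was 0.20, beside -0.02 over all genes tested. TSPAN14, a tetraspanin that carries ADAM10 to the cell surface, read 9.45, 9.38 and 9.05 in the arrays labelled GATA3, against 8.38, 7.83 and 8.52 in the GFP control (change 1.05, 2.07-fold, limma adjusted p 0.0189). Its other tested probe set rose by 1.57 (adjusted p 0.000266). FURIN, which removes the inhibitory propeptide of many ADAMs, rose by 0.76 (adjusted p 0.0126), RHBDF1, a partner of ADAM17, by 0.48 (0.0116) and TSPAN5, another ADAM10 tetraspanin, by 0.45 (0.0292). Calls of the TSPAN14 probe set with the higher mean were lost without GATA3 replicate 1 or 2 or GFP control replicate 1, those of FURIN without GFP control replicate 2 or 3, and those of TSPAN5 without any array but GATA3 replicate 3. With no filter on low values all 3 were lost (adjusted p 0.0838, 0.0553 and 0.109). Leaving out any array but GATA3 replicate 3 left 2 of the list higher. RHBDF2, which is needed for ADAM17 to mature, changed by 0.02 and did not pass.

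Of 5 tested inhibitors of metalloproteinases, 3 rose, 1 fell and 1 did not pass (14.8% higher and 14.5% lower over all genes). Their median was 0.25. RECK, a membrane-anchored inhibitor, read 8.76, 8.68 and 7.93 in the arrays labelled GATA3, against 6.73, 6.67 and 6.93 in the GFP control (change 1.68, 3.21-fold, limma adjusted p 0.00592), and its other tested probe sets rose by 1.45 and 1.59. TIMP4 read 6.84, 6.004 and 5.91 in the arrays labelled GATA3, against 4.69, 4.61 and 4.43 in the GFP control (1.67, adjusted p 0.00820). TIMP3, the main tissue inhibitor of ADAM17 and of ADAMTS proteases, changed little, by 0.25 (adjusted p 0.0429), and TIMP1, an inhibitor of ADAM10, by -0.19 (0.0137). The TIMP3 call was lost without GATA3 replicate 2 or 3 or any GFP control array, and that of TIMP1 without GATA3 replicate 2 or GFP control replicate 1 or 2. After centring arrays on their median TIMP1 changed by -0.11 and TIMP3 by 0.33 and neither passed (adjusted p 0.319 and 0.0631). The TIMP3 call was also lost with no filter (0.128), no intensity trend (0.0595) and the mean of its probe sets (0.0714). The counts were 2 higher and none lower without GATA3 replicate 2 or GFP control replicate 1 or 2, and 2 higher and 1 lower without GATA3 replicate 3 or GFP control replicate 3. TIMP2 did not pass by its probe set of the highest mean (-0.04), but its probe set 203167_at rose by 0.51 (adjusted p 0.00345).

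Of the EGF-family ligands freed by ADAMs, 4 were tested, 2 rose and 2 did not pass (14.8% higher over all genes). Their median was 0.36. The ligands AREG and EPGN had no probe set with their symbol alone and were not measured. EGF read 4.57, 5.19 and 3.22 in the arrays labelled GATA3, against 3.22 on each GFP control array. It was over 4 on too few arrays to be tested. HBEGF, the precursor of heparin-binding EGF, read 12.18, 12.14 and 12.23 in the arrays labelled GATA3, against 11.12, 11.04 and 11.10 in the GFP control (change 1.10, 2.14-fold, limma adjusted p 5.44e-05). Its other tested probe set rose by 1.197. TGFA rose by 0.54 (adjusted p 0.0249), a call lost without any array but GFP control replicate 3, which left HBEGF as the 1 member higher, and with no filter (0.101). EREG (0.18) and NRG1 (-0.11) did not pass by their probe sets of the highest mean, but of the other NRG1 probe sets 206237_s_at and 208241_at fell by 0.72 and 0.91 (adjusted p 0.0173 and 0.0489).

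Among other proteins known to be shed by ADAMs, 8 rose and 3 fell out of 25 tested, while 14 did not pass. Their median was 0.17. Over all genes tested 29.3% passed, 14.8% higher and 14.5% lower. Among the 14, CDH2 held the same 4.10 and CX3CL1 the same 4.56 on 5 of the 6 arrays, just over the level of 4. CDH1 and CXCL16, counted among the 8, were at or under 4 on all GFP control arrays and entered the test through the arrays labelled GATA3 alone, so they had to differ. CDH1, the ADAM10 substrate E-cadherin, read 7.92, 7.65 and 6.61 in the arrays labelled GATA3, against 2.35 on each GFP control array (at least 10.5-fold higher). CXCL16, a membrane chemokine, read 5.66, 5.77 and 4.99 in the arrays labelled GATA3, against 2.29, 2.61 and 2.52 in the GFP control (at least 2.77-fold higher). The stress ligand gene MICA rose by 0.74 (limma adjusted p 0.00439). TNFRSF1A, a TNF receptor shed by ADAM17, read 9.56, 9.59 and 9.72 in the arrays labelled GATA3, against 10.98, 10.96 and 10.91 in the GFP control (change -1.32, 2.50-fold lower, adjusted p 9.12e-05). The count of members higher was 5 without GFP control replicate 2 or 3 and 9 without GATA3 replicate 3. The count lower was 1 without GATA3 replicate 1 or 2 or GFP control replicate 2 or 3, and 2 without GATA3 replicate 3 or GFP control replicate 1.

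Most matrix substrates of ADAMTS proteases were not detected. Of 23, 16 lay at or under 4 on all arrays, among them the proteoglycans ACAN, VCAN, BCAN and NCAN, by their probe sets of the highest mean. Of the 7 tested, 2 rose, 2 fell and 3 did not pass, with a median of 0.03 (14.8% higher and 14.5% lower over all genes). LTBP1, which binds latent TGF-beta, read 6.48, 6.59 and 6.49 in the arrays labelled GATA3, against 8.65, 8.51 and 8.84 in the GFP control (change -2.14, 4.41-fold lower, limma adjusted p 0.000128). FN1 (fibronectin) fell by 0.48 (adjusted p 0.00243), FBN1 (fibrillin) rose by 0.69 (0.00497) and TFPI2, an inhibitor of serine proteases, rose by 0.34 (0.0154). The TFPI2 call was lost without GATA3 replicate 1 or 2 or GFP control replicate 1 or 2, which left 1 higher, and with no filter (0.0597). Of 3 tested genes for the glycosylation or uptake of proteins with thrombospondin repeats, only POFUT2 passed. POFUT2, a fucosyltransferase of the repeats, rose by 0.44 (adjusted p 0.00871), while B3GLCT (0.34) and the clearance receptor LRP1 (0.32) did not pass. LRP1 held the same 6.13 on 4 arrays, and only GATA3 replicate 3 was higher (6.88). LRP1 was also counted among the other shed proteins. The second tested probe set of POFUT2 did not pass (-0.06), nor did the mean of both (0.19, adjusted p 0.105).

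**Figure D4:**
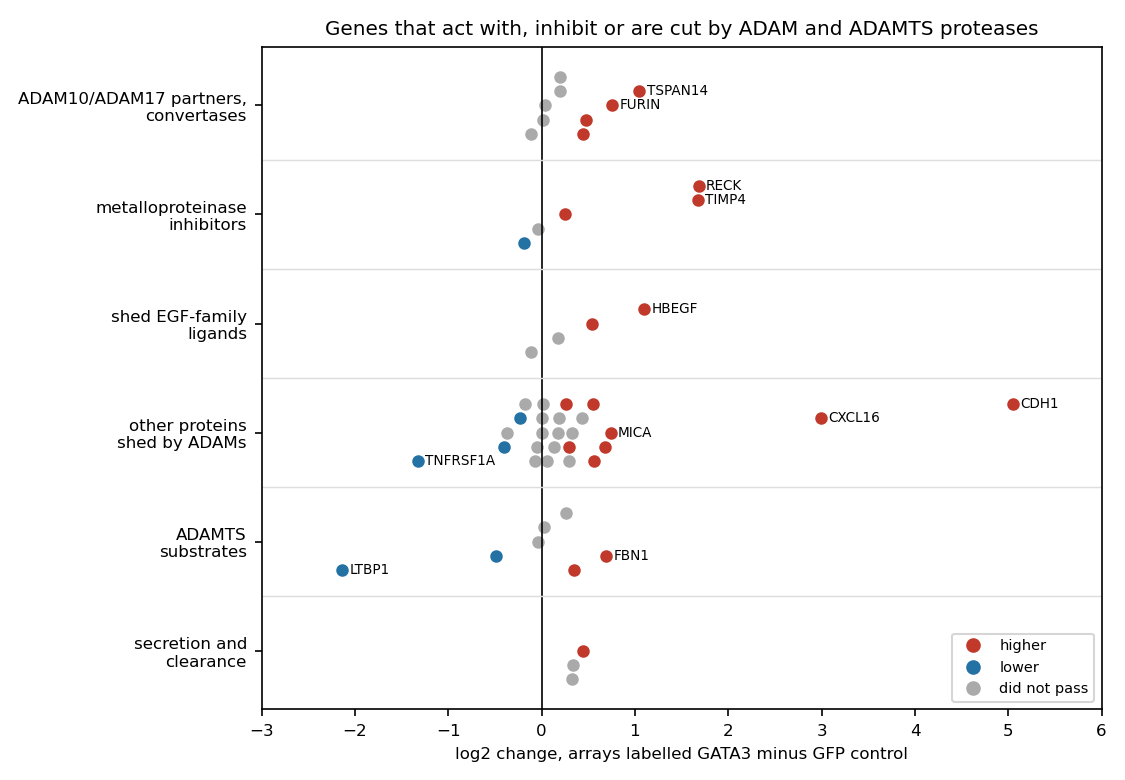
Each point is the log2 change (arrays labelled GATA3 minus GFP control) of 1 tested gene. Genes are grouped by their relation to the proteases and spread vertically for legibility. LRP1 is drawn both among the other shed proteins and in the secretion and clearance group. Points are red if higher, blue if lower and grey if not past the threshold. RECK and TIMP4 among the inhibitors and TSPAN14 and FURIN among the partners lie to the right, and LTBP1 and TNFRSF1A to the left.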

How the data were processed

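RNA samples with an integrity number above 9, per the labels' protocols, were read on 6 Affymetrix arrays. The authors deposited 1 log2 value per probe set and array, for which the submitters' processing notes name GCRMA without a version. The log2 reading rests on the range of the values, and their scale and centring are not stated. GCRMA subtracts a background modelled from probe sequence, which leaves many probe sets at a floor or at a repeated value of their own. Values were used without further scaling, and the 62 control probe sets were left out. GATA3 minus GFP control was fitted per probe set in limma 3.58.1 (R 4.3.3) with an intensity trend, after the fit was tested on simulated data. There 80, 80 and 40 of the 23785 probe sets were changed by 0.5, 1 and 2 log2 units. The fit called 27.5%, 55% and 92.5% of these. Real spreads were used, shuffled among probe sets, which broke their link to intensity. Far fewer probe sets were changed there than the 6027 called in the data. The adjusted p cutoff depends on that share, so these rates are not the recovery rates of the real comparison. A change that did not pass can still be real. A fold against a group wholly at or under 4 is a lower bound against that level. Levels of different probe sets were not compared. Symbols came from the platform annotation, and all 118 were current in the RefSeq table.

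Members, roles and pathway lists were chosen with earlier results of these data known. Every member gene was named, with values on all arrays for tested ones, and of each pathway list up to 4 genes with the largest change past the threshold. Other list genes (RHBDF2, TIMP2, EGF, EREG, NRG1, CDH2, CX3CL1, B3GLCT, LRP1) were named after their values were seen. The GATA core was searched after the longer motifs had given no match. Alternatives covered filters, scalings, trend, array weights, the replicate number as a block, choice of probe set and leaving out each array.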

Additional observations from a re-analysis of the deposited data

How the results depend on the processing

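Of the 7 called member genes, ADAMTS9, ADAMTS6, ADAM12, ADAMTS15, ADAMTS12 and ADAM15 kept direction and side of the threshold under each alternative testing them. ADAMTS16 did not. ADAM12 was not tested when the filter used a level of 5 in place of 4. Its probe set entered the main test through the arrays labelled GATA3 alone, so its kept direction is no added support. Array weights, whose estimation did not converge and gave GATA3 replicate 2 a weight of 11.8, raised the calls to 11837 probe sets (5195 higher, 6642 lower), 10 member probe sets higher, and 6 member genes higher. Without a filter, 3613 probe sets passed, 1767 lower. The replicate block gave 4128 calls, 2106 lower, and left all member counts as they were, while TFPI2, TIMP3, TSPAN14 and TSPAN5 lost their calls (adjusted p 0.0649, 0.112, 0.0609 and 0.0619). Same-numbered arrays of the 2 groups did not deviate together (correlations -0.135, 0.159 and -0.109), so they were not treated as pairs. Member probe sets higher were 9 after quantile scaling and 10 after cyclic loess or median centring, and member genes higher were 6 under cyclic loess and centring and with the mean of a gene's probe sets. With the suffix _at only, 2 member genes were lower. At 2-fold or more by the fitted change, 4 member probe sets were higher and 2 lower, and 3 member genes were higher and 1 lower. ADAM12 was among those higher only through GFP control values under 4. Leaving out 1 array gave 3688 to 7333 calls (1796 to 3581 higher, 1801 to 3752 lower), 5 to 7 member probe sets higher and 3 to 4 member genes higher. Sign turned for ADAMTS10 with array weights (-0.0052) and, with the mean of a gene's probe sets, for ADAM10 (0.062) and ADAM8 (-0.15), none of which passed. The cause was not tested. With 3 arrays per group and values near the floor, small changes of dim probe sets cannot be resolved.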
